A study of Mus musculus with 5 samples.

Results

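The genes described here encode the enzymes that make cholesterol, the proteins that regulate those enzymes and the proteins that move cholesterol within and out of the cell. A list of 28 genes was matched by platform gene symbol, and 27 had a named probe set among the 23185 named genes of the array. Acat2 is not analysed here. They comprise 7 enzymes of the mevalonate arm, 11 of the sterol arm, 5 regulators and 4 transport genes. RNA came from Ocy454, a mouse osteocyte-like cell line, of which 37 single-cell clones had been screened for Sost, the gene of the Wnt inhibitor sclerostin. The 2 high-Sost clones are 12H and 15H, and the 3 low-Sost clones are 4L, 9L and 24L. All 5 were untreated and had been kept for 7 days at 37 °C in αMEM with 10% FBS (bovine serum, which carries lipoprotein cholesterol) and 1% AA. Each clone descends from 1 sorted cell and was read on 1 Affymetrix array, so a clone's own level and that of its culture or array cannot be told apart. The comparison asked whether sterol genes read differently in high-Sost and low-Sost clones, and how they varied among all 5.

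Cholesterol is built from acetyl-CoA. The mevalonate arm makes isoprenoid units that also serve prenylation of proteins, dolichol and ubiquinone, and the sterol arm joins them into squalene, closes the rings to lanosterol and trims lanosterol to cholesterol. The transcription factors SREBP-1 and SREBP-2 switch these genes on. When membrane sterol is plentiful, INSIG proteins hold the SREBP escort SCAP in the endoplasmic reticulum. When it is scarce, SCAP carries SREBP to the Golgi, where cleavage frees the active factor, and enzyme genes, Insig1 and Stard4 are induced together. Osteoblast lineage cells use this pathway for membranes and for prenylation, the step that nitrogen-containing bisphosphonates block at farnesyl pyrophosphate synthase.

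Promoter sequences are shown for 4 of these genes, because shared promoter elements are the known route by which they are induced together. RefSeq windows (assembly GRCm38.p6) of 250 bases before the start site were found for 22 of the 27 genes. Hmgcs1 holds the sterol response element searched for, Idi1 and Cyp51 are the enzymes with a window whose clones did not overlap between the Sost groups, and Insig1 had the widest gap between the 2 high-Sost clones. Capitals mark the sterol response element (TCACNCCAC) and the CCAAT box, the binding sequence of NF-Y, which acts with SREBP. Both strands were searched, so a CCAAT box on the other strand reads ATTGG.
Hmgcs1 promoter, chr13:119690101-119690350, plus strand: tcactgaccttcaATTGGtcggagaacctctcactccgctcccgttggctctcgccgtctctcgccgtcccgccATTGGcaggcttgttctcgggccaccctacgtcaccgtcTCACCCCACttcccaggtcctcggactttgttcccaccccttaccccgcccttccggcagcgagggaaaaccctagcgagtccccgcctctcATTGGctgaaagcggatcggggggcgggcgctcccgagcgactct
Idi1 promoter, chr13:8885356-8885605, plus strand: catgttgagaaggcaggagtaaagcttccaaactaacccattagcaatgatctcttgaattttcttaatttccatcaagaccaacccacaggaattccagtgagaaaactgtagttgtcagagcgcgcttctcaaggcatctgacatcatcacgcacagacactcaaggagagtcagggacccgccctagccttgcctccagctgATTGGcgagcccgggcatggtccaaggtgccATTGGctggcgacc
Cyp51 promoter, chr5:4104698-4104947, minus strand: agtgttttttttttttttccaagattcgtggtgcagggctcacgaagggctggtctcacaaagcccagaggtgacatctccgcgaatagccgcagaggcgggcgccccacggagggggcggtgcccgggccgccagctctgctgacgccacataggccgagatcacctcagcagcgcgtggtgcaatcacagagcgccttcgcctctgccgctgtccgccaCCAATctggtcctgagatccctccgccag
Insig1 promoter, chr5:28071162-28071411, plus strand: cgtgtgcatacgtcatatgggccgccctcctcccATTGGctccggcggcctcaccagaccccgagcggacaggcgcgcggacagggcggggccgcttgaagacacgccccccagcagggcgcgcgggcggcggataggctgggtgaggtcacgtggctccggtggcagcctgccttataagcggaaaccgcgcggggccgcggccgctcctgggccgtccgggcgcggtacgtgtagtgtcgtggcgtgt

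Every one of the 15 synthesis enzymes with a window held at least 1 CCAAT box, and 10 of them held at least 2 in a window. Of 17452 measured genes with a window, 38.9% held 1 or more and 12.8% held at least 2. Among regulators and transport genes, Insig1, Insig2, Srebf1, Srebf2 and Npc2 held a CCAAT box, and the windows of Scap and Abca1 held no match. The Sp1 box (GGGCGG) was found in 20 of the 22 genes, against 46.4% of all genes. The E-box CACGTG was found in 6, Hsd17b7, Sc5d, Dhcr7, Insig1, Scap and Abca1, against 7.79%. Hmgcs1 alone among the 22 matched the sterol response element as written, TCACNCCAC, 137 to 129 bases before its start, against 1.23% of all genes. Other spellings of the element were not searched for, so a window without a match is not shown to lack one. These 4 searches share the same windows, and Dhcr7, Insig2 and Srebf1 had 3 windows each and Pmvk and Scap 2, which gives such genes more chances of a match. A match describes letters in the window and does not show that a factor binds there.

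Values are RMA expression on the log2 scale, where a difference of 1 is 2-fold. The median over all rows lay between 4.04 and 4.08 on the 5 arrays, and precision is limited by there being 5 arrays. A probe set's level depends on its probes, so levels are compared between clones and not between genes. Of the 27 genes 23 averaged 6 or more, and Fdps, Idi1, Tm7sf2 and Abca1 averaged less. Sost itself read 3.78 to 4.08 in the 5 clones, near the array medians. The osteocyte markers Dmp1 and Phex read 5.75 to 7.45 in the high-Sost and 2.08 to 3.17 in the low-Sost clones, and Mepe and Fgf23 2.79 to 3.29 in all 5. Pdpn ran the other way, at 8.35 (12H) and 8.06 (15H) in the high-Sost clones and 9.20 (4L), 8.97 (9L) and 9.20 (24L) in the low-Sost clones, without overlap. The summed log2 level of the 7 osteocyte markers was 38.66 to 38.93 in high-Sost and 27.50 to 29.10 in low-Sost clones. Thus all of these but Pdpn were near the array median or below it in the low-Sost clones, and their part in any sterol gene value was not tested. Summed over 5 osteoblast markers, the level was 49.15 to 50.92 in high-Sost and 25.22 to 43.34 in low-Sost clones. Col1a1 overlapped between the groups and was highest in a low-Sost clone. It read 11.49 (12H), 11.30 (15H), 10.35 (4L), 10.67 (9L) and 11.64 (24L). Bglap read 5.62 to 6.03 in high-Sost and 3.45 to 4.18 in low-Sost clones, lowest in 24L. Clone 4L stood apart in Ibsp, Sp7 and Alpl. Ibsp read 2.24 in 4L and 8.35 to 11.80 in the other 4 clones, Sp7 2.68 and 7.05 to 9.98, and Alpl 6.21 and 10.36 to 11.61. Clone 4L was also often lowest for sterol genes, and the part of these markers in that was not tested. The 5 adipocyte markers measured read 1.84 to 4.19 in all clones, the 4 endothelial markers 2.55 to 3.56 and the 2 hepatocyte markers 2.16 to 3.38. Of 5 macrophage and blood markers Cd68 read 5.27 to 6.97 and the other 4 at most 3.59. Summed levels were 13.78 to 14.77 in high-Sost and 13.85 to 14.87 in low-Sost clones for adipocyte, 16.33 to 16.96 in high-Sost and 16.19 to 17.84 in low-Sost clones for macrophage and blood and 11.10 to 11.37 in high-Sost and 11.41 to 12.04 in low-Sost clones for endothelial markers. In RNA from whole cultures, fewer cells of a kind and less RNA per cell cannot be told apart.

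Sterol genes took no common direction between the high-Sost and the low-Sost clones. The mean of the high-Sost clones was above that of the low-Sost clones for 11 genes and below it for 16, and the median log2 difference was -0.07, against 0.00 over all named genes. Of the 27 genes 0 passed limma's moderated test at a Benjamini-Hochberg adjusted p under 0.05, and 0.0% of all genes did. Only Cyp51 had an unadjusted p under 0.05, on the lower side, where 2.71% of all genes lay, and 0 were on the higher side, where 3.07% lay. Idi1, Sqle and Cyp51 read lower in both high-Sost clones than in any low-Sost clone, and Npc1 read higher, without overlap. Over all genes such gaps were seen in 7.75% on the lower and 8.26% on the higher side. Among genes averaging 6 or more the shares were 13.5% and 12.9%, against 2 lower (Sqle and Cyp51) and 1 higher (Npc1) of 23 sterol genes. Among these 23 genes both shares thus lay below the background. Among all 27, the 3 lower genes were a larger share than 7.75%, and the 1 higher gene a smaller share than 8.26%. Neither was tested. The counts of gaps also moved with single clones. Without 15H, 12 genes were lower without overlap, without 24L 6, and without 4L or without 12H 5. On the higher side there were 7 without 12H, 6 without 9L and 2 without 4L or without 15H. A group with fewer clones makes a gap easier, and the share of all genes was not counted with a clone left out. These counts therefore cannot be set against the shares above. Leaving out 1 clone turned the sign of the difference for Hmgcs1 (without 9L or 12H), Mvk (without 9L), Mvd (without 9L), Fdps (without 9L or 12H), Hsd17b7 (without 4L), Ebp (without 4L or 15H) and Insig1 (without 4L or 15H). With 2 and 3 clones, the smallest p of an exact permutation test is 0.1.

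**Figure D1:**
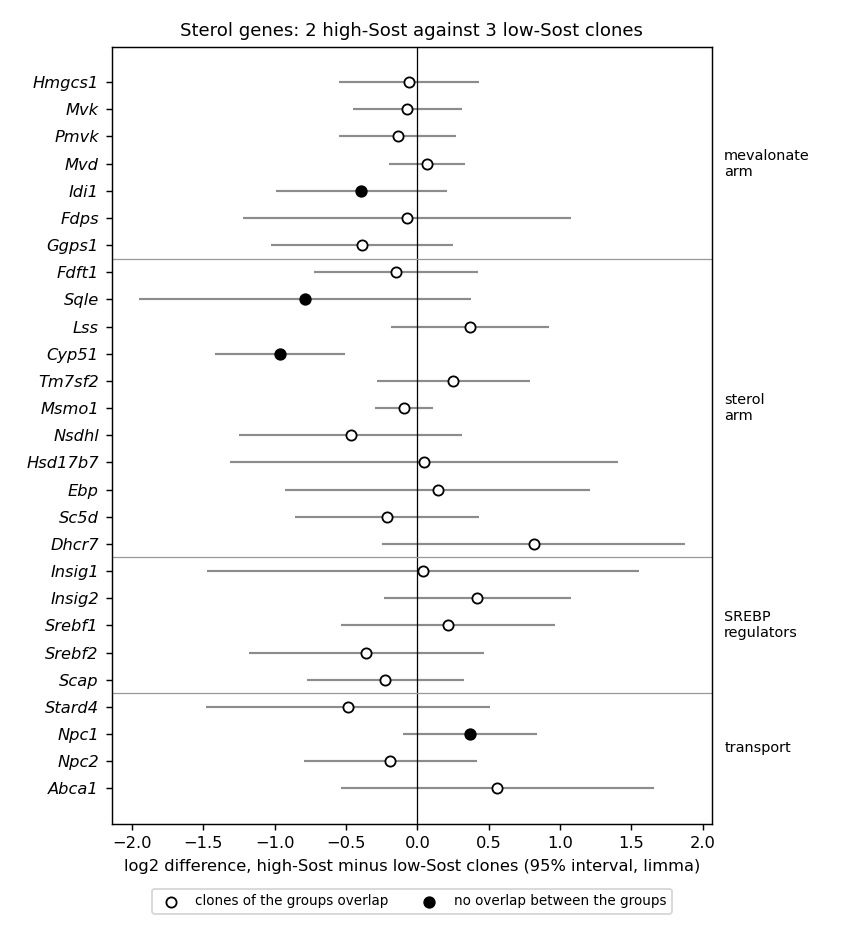
Log2 difference of each of 27 sterol genes, high-Sost minus low-Sost clones (x axis), by gene and role (y axis); circles are differences from 2 against 3 clones, filled where the clones of the groups do not overlap, and lines are 95% intervals from limma. The interval of Cyp51, -1.42 to -0.50, lies below 0, and those of the other 26 genes include 0.

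In the mevalonate arm, differences between the Sost groups ran from -0.39 for Idi1 to 0.07 for Mvd. Of the 7 enzymes 6 averaged lower in the high-Sost clones, and the 95% interval of each included 0. Hmgcs1, which condenses acetyl-CoA units to HMG-CoA, read 8.67 (12H) and 9.06 (15H) in the high-Sost clones and 8.76 (4L), 9.09 (9L) and 8.94 (24L) in the low-Sost clones. The order put 9L and 15H at the top and 12H and 4L at the bottom, so the Sost groups were interleaved (difference -0.06, SE 0.17). Mvk and Pmvk, the kinases of mevalonate and of phosphomevalonate, lay within 0.10 log2 units in 4 clones and stood apart in 9L, at 6.95 and 7.00. Mvd, the decarboxylase that makes isopentenyl pyrophosphate, read 6.71 to 6.98 and was the enzyme of this arm that had its lowest value in 9L. The differences of these 3 genes were -0.07, -0.14 and 0.07, each smaller than the SD of the low-Sost clones.

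Idi1, which isomerises isopentenyl pyrophosphate, read 5.69 (12H) and 5.32 (15H) in the high-Sost clones and 5.76 (4L), 6.19 (9L) and 5.76 (24L) in the low-Sost clones. Both high-Sost clones lay below the low-Sost clones, but 12H was only 0.07 below the nearest of them (difference -0.39, SE 0.21, limma adjusted p = 0.737). Fdps, the farnesyl pyrophosphate synthase at the branch point to sterols, read 5.12 (12H) and 5.95 (15H) in the high-Sost clones and 5.28 (4L), 6.09 (9L) and 5.46 (24L) in the low-Sost clones. Here 9L and 15H stood above the other 3 clones, and the group means were nearly level (difference -0.07, 95% interval -1.23 to 1.08). Ggps1 makes geranylgeranyl pyrophosphate for prenylation and lies off the path to sterols. It read 7.72 (12H) and 7.26 (15H) in the high-Sost clones and 8.04 (4L), 7.996 (9L) and 7.61 (24L) in the low-Sost clones, highest in 4L and lowest in 15H (difference -0.39, SE 0.22).

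The sterol arm held the lowest and the highest difference of the 27 genes, in Cyp51 and Dhcr7. Cyp51, the demethylase that takes lanosterol into the final steps, averaged 7.95 ± 0.10 (SD, n = 2) in the high-Sost and 8.91 ± 0.22 (SD, n = 3) in the low-Sost clones. It read 7.87 (12H) and 8.02 (15H) in the high-Sost clones and 8.85 (4L), 8.72 (9L) and 9.16 (24L) in the low-Sost clones. The lowest low-Sost clone stood 0.70 above the highest high-Sost clone, and the difference of -0.96 (SE 0.16) is 1.95-fold. It did not pass over all genes (limma adjusted p = 0.602, unadjusted p = 0.00489). With any 1 clone left out the difference ranged from -1.06 to -0.84. The highest clone for this gene was 24L, not 9L.

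Sqle, squalene epoxidase, a rate-controlling enzyme of this arm, averaged 7.91 ± 0.74 (SD, n = 2) in the high-Sost and 8.70 ± 0.30 (SD, n = 3) in the low-Sost clones. Its values were 7.39 (12H) and 8.44 (15H) in the high-Sost clones and 8.57 (4L), 9.05 (9L) and 8.49 (24L) in the low-Sost clones. Clone 12H stood alone at the bottom, 1.05 below 15H, while 15H lay only 0.06 below the lowest low-Sost clone. The difference of -0.79 (SE 0.41), 1.73-fold, did not pass (limma adjusted p = 0.737). Without 12H it was -0.26, and without 15H -1.31. Nsdhl, the dehydrogenase that removes a carboxyl group during demethylation, had a like pattern at 6.94 (12H) and 7.65 (15H) in the high-Sost clones and 7.65 (4L), 7.99 (9L) and 7.65 (24L) in the low-Sost clones. Clones 15H, 4L and 24L had exactly the same deposited value, with 12H below and 9L above it. The Nsdhl difference of -0.47 (SE 0.27) thus rests on 12H, and without 12H it was -0.11. Exact ties between clones also occur in Pmvk, Idi1, Mvd, Tm7sf2, Stard4 and Abca1, and their source was not tested.

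Dhcr7, the reductase that turns dehydrocholesterol into cholesterol, went the other way from Cyp51. It averaged 8.43 ± 0.45 (SD, n = 2) in the high-Sost and 7.61 ± 0.45 (SD, n = 3) in the low-Sost clones, a difference of 0.81 (SE 0.37) or 1.76-fold, which did not pass (limma adjusted p = 0.737). The clones read 8.11 (12H) and 8.75 (15H) in the high-Sost clones and 7.33 (4L), 8.13 (9L) and 7.38 (24L) in the low-Sost clones. The groups overlapped only because 9L lay 0.02 above 12H, and without 9L the difference was 1.07. Lss, the cyclase that makes lanosterol, read 7.68 (12H) and 8.12 (15H) in the high-Sost clones and 7.42 (4L), 7.74 (9L) and 7.43 (24L) in the low-Sost clones (difference 0.37, SE 0.19). Its high-Sost clones also averaged above the low-Sost clones, and 9L lay between 12H and 15H. Tm7sf2, a sterol reductase, read 4.44 to 5.09, highest in 15H and lowest in 4L (difference 0.25, SE 0.19).

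Fdft1, squalene synthase, read 8.98 (12H) and 9.09 (15H) in the high-Sost clones and 8.89 (4L), 9.48 (9L) and 9.18 (24L) in the low-Sost clones. The low-Sost clones spanned both ends, with 9L highest and 4L lowest (difference -0.15, SE 0.20). Sc5d, a sterol desaturase, had the same ends, with 9.03 in 9L and 8.37 in 4L (difference -0.21, SE 0.22). Hsd17b7, a keto-reductase of the demethylation steps, had the widest spread of any sterol gene within the low-Sost group. It read 7.59 (12H) and 7.67 (15H) in the high-Sost clones and 6.87 (4L), 8.28 (9L) and 7.59 (24L) in the low-Sost clones, so 4L and 9L were 2.66-fold apart with both high-Sost clones between them (difference 0.04, 95% interval -1.32 to 1.40). Ebp, a sterol isomerase, read 8.49 (12H) and 9.40 (15H) in the high-Sost clones and 8.49 (4L), 8.80 (9L) and 9.13 (24L) in the low-Sost clones, highest in 15H and lowest in 12H and 4L, which were level. Msmo1, a methyl sterol oxidase, varied least of the 27 genes, from 9.04 to 9.28 (difference -0.09, SE 0.07).

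Among regulators, differences between the Sost groups ran from -0.36 for Srebf2 to 0.42 for Insig2, and 0 of the 5 were free of overlap. Insig1, the sterol sensor partner that is itself induced by SREBP, read 8.98 (12H) and 10.30 (15H) in the high-Sost clones and 9.20 (4L), 10.04 (9L) and 9.57 (24L) in the low-Sost clones. The 2 high-Sost clones were the highest and the lowest of all 5, 2.51-fold apart, and the group means were 9.64 and 9.60 (difference 0.04, 95% interval -1.48 to 1.55). Insig2, the second retention protein, which is not driven by SREBP in the same way, read 8.16 (12H) and 7.80 (15H) in the high-Sost clones and 7.29 (4L), 7.86 (9L) and 7.53 (24L) in the low-Sost clones. It was highest in 12H, the clone where Insig1 was lowest (difference 0.42, SE 0.23).

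Srebf2, the gene of SREBP-2, the main driver of cholesterol synthesis, read 8.60 (12H) and 9.05 (15H) in the high-Sost clones and 9.09 (4L), 9.58 (9L) and 8.87 (24L) in the low-Sost clones. The highest clone was 9L and the lowest 12H, with 15H inside the low-Sost range (difference -0.36, SE 0.29). Srebf1, whose products act more on fatty acid genes, read 7.00 (12H) and 7.29 (15H) in the high-Sost clones and 6.58 (4L), 7.31 (9L) and 6.90 (24L) in the low-Sost clones. Clones 9L and 15H were level at the top and 4L was lowest (difference 0.22, SE 0.26). Scap, the escort protein, read 7.68 (12H) and 8.09 (15H) in the high-Sost clones and 8.17 (4L), 7.89 (9L) and 8.27 (24L) in the low-Sost clones, and 9L was the second lowest clone here (difference -0.22, SE 0.19).

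Transport genes did not share a pattern. Stard4, a soluble sterol carrier induced by SREBP, read 5.84 (12H) and 6.47 (15H) in the high-Sost clones and 6.35 (4L), 7.11 (9L) and 6.47 (24L) in the low-Sost clones. It was highest in 9L and lowest in 12H, as were Hmgcs1, Fdps, Sqle, Msmo1, Nsdhl and Srebf2 (difference -0.49, SE 0.35). Npc1, the membrane protein that exports cholesterol from lysosomes, read 6.76 (12H) and 7.22 (15H) in the high-Sost clones and 6.55 (4L), 6.64 (9L) and 6.68 (24L) in the low-Sost clones. It was the one sterol gene higher in both high-Sost clones than in every low-Sost clone, with 12H 0.08 above 24L, and its difference of 0.37 (SE 0.16) did not pass (limma adjusted p = 0.737). Without 15H the difference was 0.14, and without 12H 0.60.

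Npc2, the soluble partner that hands cholesterol to NPC1 in the lysosome, read 9.56 to 10.21, highest in 4L and lowest in 12H (difference -0.19, SE 0.21). Abca1, which exports cholesterol to apolipoproteins and is induced by LXR when sterol is plentiful, read 4.11 (12H) and 5.05 (15H) in the high-Sost clones and 4.20 (4L), 3.66 (9L) and 4.20 (24L) in the low-Sost clones. It was highest in 15H and lowest in 9L, the clone where most synthesis enzymes were highest (difference 0.56, SE 0.38). Abca1 read near the array median in 4 clones.

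**Figure D2:**
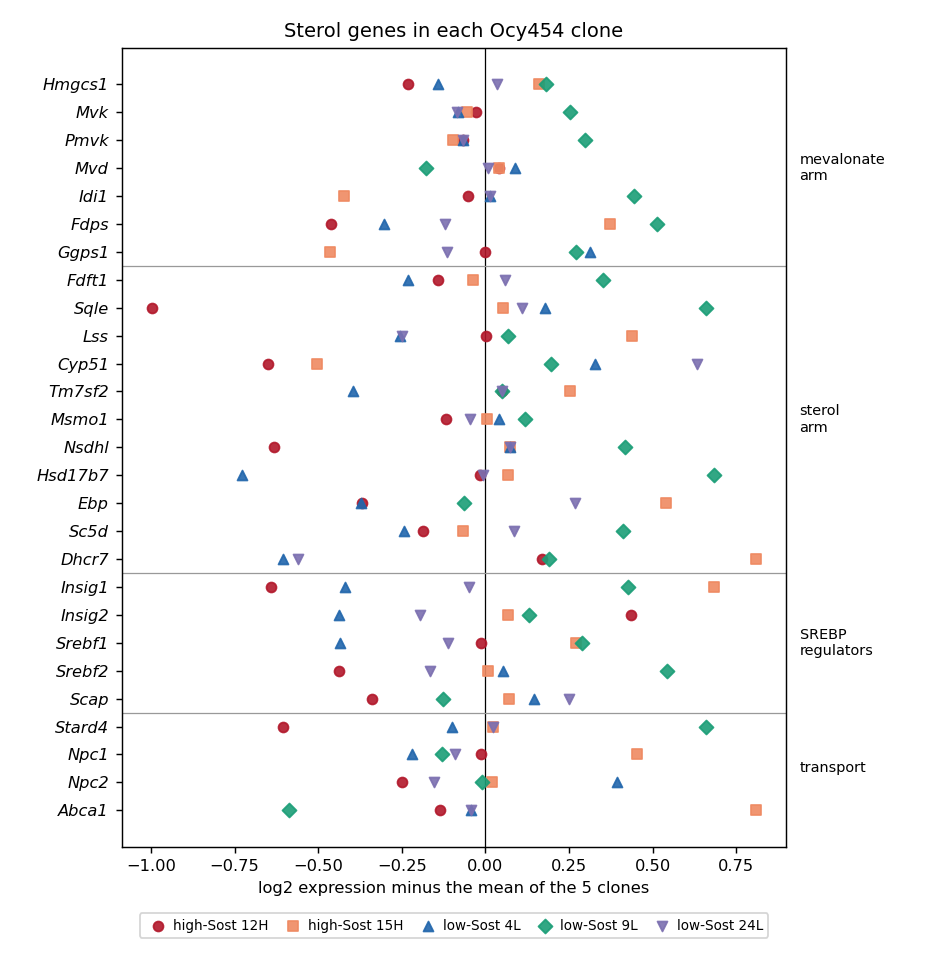
Log2 expression of each of 27 sterol genes in each clone minus that gene's mean over the 5 clones (x axis), by gene and role (y axis); each point is 1 array, and marker and colour give the clone. Clone 9L is the rightmost point for 14 genes, and 12H is the leftmost for 11.

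Sterol genes were most often highest in 9L and 15H and most often lowest in 12H and 4L, so each end held 1 clone of each Sost group. Clone 9L, a low-Sost clone, had the highest value for 14 of the 27 genes, 15H, a high-Sost clone, for 7, 4L for 3, 24L for 2 and 12H for 1. Among the 23 genes averaging 6 or more, 9L was highest for 12, or 52.2%, against 20.0% of 7807 genes at that level. The lowest value lay in 12H for 10 of the 23 and in 4L for 9, 43.5% and 39.1%, against 22.6% and 24.7% of all such genes. These genes are regulated together and are not independent of each other, and the shares carry no test.

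**Figure D3:**
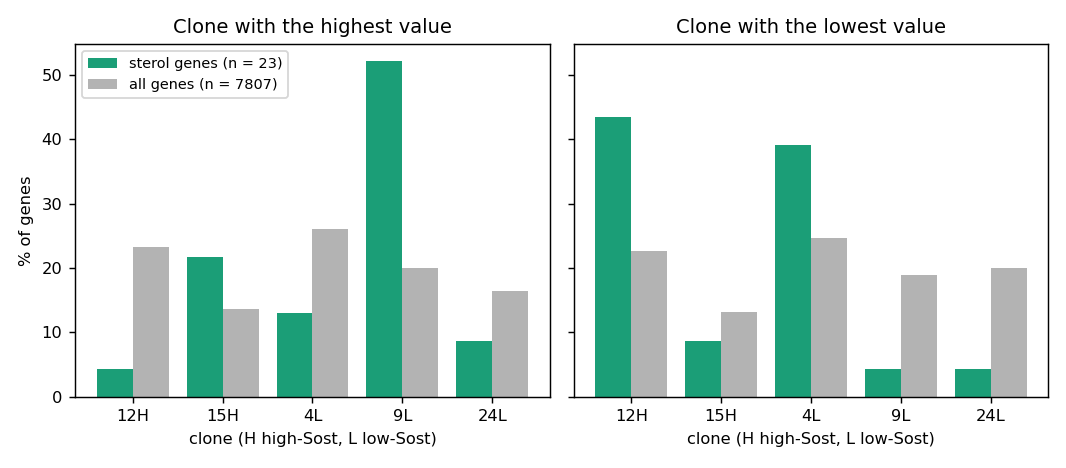
Share of genes (y axis, %) for which each clone (x axis) had the highest value (left) or the lowest value (right), for 23 sterol genes and for all 7807 named genes with a mean of 6 or more. Clone 9L was highest for 52.2% of sterol genes, and 12H and 4L together were lowest for 10 and 9 of the 23.

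The spread over the 5 clones had a median of 0.72 log2 units in the 23 genes, against 0.58 in all genes at that level. A range of 1 or more was seen in 7 of the 23, Sqle, Cyp51, Nsdhl, Hsd17b7, Dhcr7, Insig1 and Stard4, against 17.2% of all. The group difference was smaller than the pooled SD within the groups for 13 of the 27 genes and larger for 14.

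Within the high-Sost group, 18 of the 23 genes read higher in 15H than in 12H and 4 read lower, while Mvd was equal. By 0.5 or more, Sqle, Nsdhl, Ebp, Dhcr7, Insig1 and Stard4 were higher in 15H and 0 were lower. Over all genes at that level 7.83% were higher and 5.14% lower by as much. The 4 genes lower in 15H were Mvk, Pmvk, Ggps1 and Insig2. Among genes averaging under 6, Fdps was 0.83 and Abca1 0.95 higher in 15H, and Idi1 differed by -0.37.

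Within the low-Sost group, 9L read above 4L for 18 of the 23 genes and above 24L for 18. By 0.5 or more, 9L exceeded 4L for 8 genes, Fdft1, Hsd17b7, Sc5d, Dhcr7, Insig1, Insig2, Srebf1 and Stard4, and was lower for 0. Over all genes 13.4% were higher and 11.9% lower. Against 24L the count was 5 higher, Sqle, Hsd17b7, Dhcr7, Srebf2 and Stard4, and 0 lower, with 9.3% and 8.16% over all genes. Between 24L and 4L, Hsd17b7 and Ebp were higher in 24L and Npc2 was lower, with 10.9% and 10.7% over all genes. The median difference of the 23 genes was 0.29 for 15H minus 12H, 0.34 for 9L minus 4L, 0.33 for 9L minus 24L and 0.10 for 24L minus 4L. Between the Sost groups the median difference of the same 23 genes was -0.09. That value compares means over clones and the pair values compare single arrays, so their sizes cannot be set against each other. Pairs of clones from different Sost groups were not compared. The 3 low-Sost pairs share clones, and with 1 array per clone the differences within pairs have no replicate check.

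**Figure D4:**
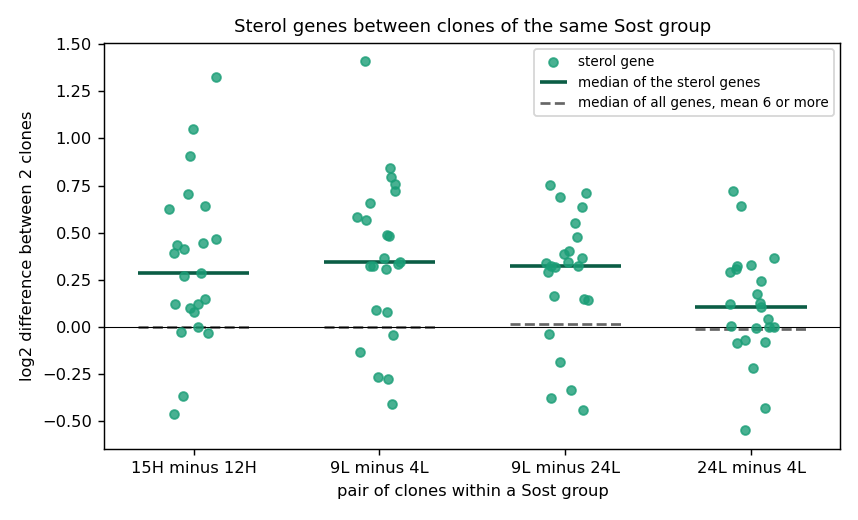
Log2 difference between 2 clones of the same Sost group (y axis) for each pair (x axis); each point is 1 of 23 sterol genes with a mean of 6 or more, solid lines are their medians and dashed lines the medians of 7807 genes at that level. The medians of the sterol genes are 0.29, 0.34, 0.33 and 0.10, and those of all genes lie within 0.02 of 0.

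By role, the median deviation of the mevalonate arm from the 5-clone mean was 0.27 (9L), -0.06 (15H), -0.07 (24L), -0.07 (4L) and -0.05 (12H). Only 9L stood apart there. In the sterol arm it was 0.19 (9L), 0.07 (15H), 0.06 (24L), -0.24 (4L) and -0.14 (12H), and in the regulators 0.29 (9L), 0.07 (15H), -0.11 (24L), -0.42 (4L) and -0.34 (12H). In both of these 9L and 15H were above 0 and 12H and 4L below it. The 4 transport genes did not follow this order. Their medians were -0.07 (9L), 0.24 (15H), -0.07 (24L), -0.07 (4L) and -0.19 (12H), with 9L level with 4L and 24L and 15H the one clone above 0.

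Lists of neighbouring pathways were measured beside these genes, and 0 genes of any of them passed limma's test over all genes. Counts without overlap in these lists stand against 8.26% higher and 7.75% lower of all genes, and 12.9% and 13.5% of genes averaging 6 or more. Median differences between the Sost groups stand against 0.00 over all genes. Fatty acid genes driven by SREBP (15 measured) had medians of 0.01 (9L), 0.05 (15H), 0.09 (24L), -0.06 (4L) and -0.12 (12H). In that list 24L was the highest clone and 9L lay near 0. Between the Sost groups 2 were higher and 1 lower without overlap, all among the 12 of the 15 that averaged 6 or more. That is near or below the 12.9% and 13.5% of all genes at that level, and the median difference was -0.06. Lpin1, a phosphatidate phosphatase, differed by 1.04 (SE 0.30), Elovl5, a fatty acid elongase, by -0.65 (SE 0.12) and Scd1, a fatty acid desaturase, by 0.21 (SE 0.11), with limma adjusted p of 0.737, 0.630 and 0.737.

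SREBP processing genes (11 measured) had 1 gene without overlap on each side, at or below the 12.9% and 13.5% of genes averaging 6 or more, as all 11 did. Their median difference was 0.03. Mbtps1, the protease that makes the first cut in SREBP, read 9.19 (12H) and 8.86 (15H) in the high-Sost clones and 8.66 (4L), 8.35 (9L) and 8.51 (24L) in the low-Sost clones (difference 0.51, SE 0.15, limma adjusted p = 0.737). Rnf139, a ubiquitin ligase of the endoplasmic reticulum, differed by -0.29 (SE 0.06). For LXR and efflux genes (9 measured) 0 were higher and 1 lower without overlap, Nr1h3, the gene of LXRα, which averaged under 6 and was chosen after its values were seen. That is near the 7.75% of all genes, and the median difference was -0.01. Lpcat3, a phospholipid acyltransferase and LXR target, differed by 0.30 (SE 0.23) with overlap.

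Genes that handle sterol inside the cell (15 measured) had 2 on each side without overlap (median difference -0.01). Over all genes the shares were 8.26% higher and 7.75% lower. Of the 15 genes 12 averaged 6 or more, where the shares over all such genes were 12.9% and 13.5%. Cav1, the caveolin that binds cholesterol in caveolae, read 6.16 (12H) and 6.69 (15H) in the high-Sost clones and 8.41 (4L), 8.73 (9L) and 8.79 (24L) in the low-Sost clones, a 4.65-fold lower level in the high-Sost clones that did not pass (difference -2.22, SE 0.22, limma adjusted p = 0.546). Nceh1, a cholesteryl ester hydrolase, and Gramd1a, which carries sterol from plasma membrane to endoplasmic reticulum, differed by 0.76 (SE 0.25) and 0.36 (SE 0.10). Scp2, also lower without overlap, was named after its values were seen.

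Lipoprotein receptors (8 measured) had 1 gene higher without overlap, Lrp10, at 0.31 (SE 0.10). That count is near the 8.26% of all genes, and the median difference was 0.08. Lrp10 was 1 of 4 in the list averaging 6 or more, where 12.9% of all genes were higher. In the branch to prenyl groups, dolichol and ubiquinone (11 measured) 4 were higher and 0 lower without overlap, against 8.26% and 7.75% of all genes and 12.9% and 13.5% at a mean of 6 or more. The median difference was 0.07, and 0 of the 11 had an unadjusted p under 0.05 in limma's test. The count of higher genes lay above both shares but was not tested. The list was chosen with earlier results known, so no conclusion is drawn from the count. Coq2 of ubiquinone synthesis, Srd5a3 of dolichol synthesis and Icmt, which methylates prenylated proteins, differed by 0.33 (SE 0.20), 0.22 (SE 0.08) and 0.16 (SE 0.14), and Nus1, taken up after its values were seen, was the fourth. Their limma adjusted p lay between 0.737 and 0.753. Side-chain and oxysterol enzymes (7 measured) had 0 on either side (median difference 0.11), and Lbr, a nuclear envelope protein with sterol reductase activity, differed by 0.26 (SE 0.33).

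Cell cycle genes, which differ with growth rate, also varied among the clones. The median of 11 genes deviated by 0.07 (9L), -0.05 (15H), 0.07 (24L), -0.57 (4L) and 0.33 (12H), and their summed log2 level was 100.13 to 104.09 in high-Sost and 95.37 to 101.85 in low-Sost clones. Clone 4L was lowest in this list and often lowest in sterol genes, whereas 12H was highest in this list and often lowest in sterol genes. Rrm2, a subunit of ribonucleotide reductase, differed by 1.19 (SE 0.60) and Tyms, thymidylate synthase, by -0.51 (SE 0.22), both without overlap. These were 1 gene of 11 on each side, below the 12.9% and 13.5% of genes averaging 6 or more. The median difference of the list was 0.18, against 0.00 over all genes. In the high-Sost clones 9 of the 11 averaged higher and 2 lower, and 0 had an unadjusted p under 0.05 in limma's test. The part of cell cycle genes in the sterol gene values was not tested.

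**Figure D5:**
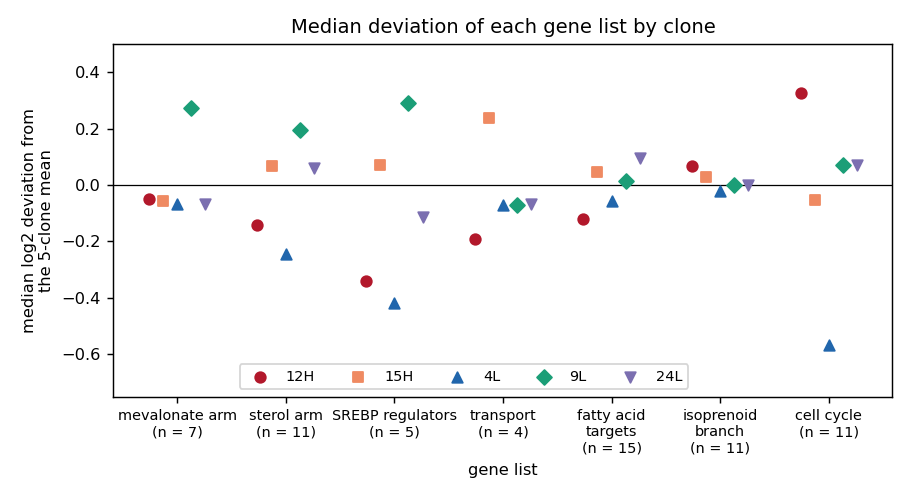
Median over the genes of a list of the log2 deviation from each gene's 5-clone mean (y axis), for 4 sterol gene roles and 3 other lists (x axis, with the number of genes); each point is 1 clone. In the sterol arm and the regulators 9L and 15H lie above 0 and 12H and 4L below it, while in the cell cycle list 12H is highest, at 0.33, and 4L lowest, at -0.57.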

How the data were processed

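The authors deposited log2 expression per probe set for 5 arrays. RMA, with affy 1.36.1 and R 2.15.1, is listed in the submitters' processing notes. The chip definition is not given in the sources used here. Because RMA gives all arrays 1 distribution, it removes a shift common to most of a clone's genes. Of 25206 rows, 23185 carry 1 gene in the platform table, 0 carry several and 2021 unnamed rows were left out. All 23185 were matched by Entrez number to RefSeq names (GRCm38.p6).

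Groups follow the Sost label. Each named gene was fitted with limma 3.58.1 in R 4.3.3 (group term, eBayes, 3 residual and 0.70 prior degrees of freedom). Tests were two-sided, p-values were adjusted by Benjamini-Hochberg over all 23185, and an adjusted p under 0.05 passed. Each p-value sets the group difference against the spread between clones, which with 1 array per clone also holds culture and array. A fold is 2 raised to the log2 difference. Pair counts, and clone counts where stated, were limited to genes averaging at least 6. The fit was tested on simulated data. Figures used matplotlib 3.10.9 in Python 3.11.15.

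The members and lists were chosen with earlier results of these data known. All sterol genes were named. From each other list up to 3 genes with a mean of 6 or more, no overlap and the largest difference were named, or else the 1 with the largest difference. Alternatives were a filter on dim genes, other scalings, variance models, array weights, a looser threshold and leaving out each clone. Pair counts and the background at a mean of 6 or more were added after seeing the data.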

Additional observations from a re-analysis of the deposited data

How the results depend on the processing

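With 5 arrays, 27 sterol genes and 11 alternatives each, 286 of 297 differences kept their direction and their side of the threshold, and 0 sterol genes passed in any setting, also at an adjusted p under 0.1. Cyp51 had an unadjusted p of 0.00241 to 0.0427 and a limma adjusted p of 0.290 to 0.732 over these alternatives. The filter on dim genes, the variance trend and the unmoderated test leave each difference unchanged, so its direction could not turn there. With 0 sterol genes passing in the main fit, the side of the threshold could change only by a gene passing. The 11 reversals came from 7 genes with 1 clone left out, whose differences ranged over -0.26 to 0.14 (Hmgcs1), -0.13 to 0.042 (Mvk), -0.0062 to 0.13 (Mvd), -0.49 to 0.34 (Fdps), -0.31 to 0.39 (Hsd17b7), -0.31 to 0.60 (Ebp) and -0.63 to 0.70 (Insig1). Leaving out 1 clone gave 1 to 7 sterol genes higher and 4 to 12 lower without overlap. Leaving out 1 low-Sost clone gave 0 to 1 higher and 1 lower at an unadjusted p under 0.05 in limma's test. The higher one was Dhcr7 without 9L, and the lower one was Cyp51. Such counts are not given without 12H or without 15H, where 1 high-Sost clone is left. With arrays shifted to 1 median, 3 sterol genes were higher without overlap (Npc1, Dhcr7 and Tm7sf2), and with quantile normalization again 2 (Npc1 and Tm7sf2) were higher and 4 lower, Nsdhl being added. Dhcr7, Tm7sf2 and Nsdhl, the genes added, are ties or near ties in the values as deposited. The share of all genes without overlap or at an unadjusted p under 0.05 was not counted in any alternative setting. The counts of sterol genes in these settings therefore have no background beside them. Over all genes 0 passed, against 2 with arrays shifted to 1 median, 1 with the unmoderated test and 3 at an adjusted p under 0.1. None of them were sterol genes. The 1 gene of the unmoderated test was Sycp1-ps1, with a difference of 0.066 and an SE of 5.0e-17. Its values had almost no spread within the groups, and its pass rests on that SE. Why the other genes passed was not tested. Without 12H or 15H the lone high-Sost clone is assumed to vary like the others. No paired analysis was possible because the clone numbers are not shared between groups.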
